A study of Mus musculus with 20 samples.

Results

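The hippocampus of adult mice was compared with that of juvenile mice among the libraries labelled Adnp-HT, that is, heterozygous for a deletion in the gene of the chromatin-associated factor *Adnp*. The comparison takes the 5 adult and 5 juvenile libraries with this label, of 20 in the study, and every gene with a mean normalized read count of at least 10 over these 10 libraries, which held for 17616 of 19258 genes. The remaining 10 libraries come from wild-type (WT) mice of the same ages and are given beside the Adnp-HT values. All mice were males on the C57BL/6J background. The adults were 4 months old, and the juveniles were 3 weeks old, labelled postnatal day (P) 20 to P22. The Adnp-HT allele lacks exon 5 of *Adnp*. It derives from a knockout-first allele, *Adnp* tm1a(KOMP)Wtsi, from which the cassette and then the exon were removed in the germ line by crosses to Protamine-Flp and Protamine-Cre mice, so that all cells of the animal carry it, and the line was backcrossed to C57BL/6J. Each library is 1 mouse, and WT mice carry 2 intact copies of the gene.

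The study asked how RNA, proteins, synapses and behaviour of Adnp-HT mice differ from WT at the juvenile and adult stage. Comparing ages within the mutant shows which transcripts rise or fall while the mutant hippocampus matures. Polyadenylated RNA was sequenced, and the deposited values are read counts per gene after normalization over all libraries. Their totals were 32039800 to 32683300 in the 10 libraries. The depth of sequencing is not known here, so no counting error is attached to these values. A gene was called changed where limma, fitted to log2(normalized count + 1), gave an adjusted p under 0.05. Every difference below is adult minus juvenile on this log2 scale with the standard error (SE) of the fit, and n is 5 libraries in each group. Values of single libraries stand in the order of replicates 1 to 5. The added 1 makes differences of genes with low counts smaller than their ratios. Counts are not divided by gene length, so levels are compared between libraries and not between genes.

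In the third postnatal week the rodent hippocampus is still being built. Oligodendrocyte precursors leave the cell cycle, pass through a short premyelinating stage and wrap axons. Granule neurons are still added to the dentate gyrus, and synapses exchange subunits of their receptors, scaffolds and channels. By adulthood, precursor division and neurogenesis have slowed, myelin is being maintained more than laid down, and the matrix around neurons has become denser. *Adnp* binds chromatin together with remodelling enzymes and is needed in early development.

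*Adnp* itself (ENSMUSG00000051149, chromosome 2 from 168180986 to 168207112, minus strand of GRCm38) was counted at 2672, 2419, 2458, 2092 and 2432 in juveniles and at 2476, 2661, 2309.5, 2705 and 2705 in adults. The groups overlapped, with means of 2415 ± 208 (SD, n = 5) in juveniles and 2571 ± 174 in adults, and the two-sided exact permutation test gave p = 0.246. In WT libraries the means were 2212 and 2154, and the mean in libraries labelled Adnp-HT was 109% of that in WT in juveniles and 119% in adults. The files hold 1 value per gene and do not show exon 5 alone, so the genotype could not be checked against this gene, and the groups are called by their labels throughout. The study's own genotyping was by PCR.

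*Gm20716* (ENSMUSG00000093752, chromosome 2 from 168180986 to 168230364, minus strand) is annotated as a joint transcript with exons of both *Adnp* and the adjacent gene *Dpm1*, an enzyme subunit of glycosylation, so reads may be divided among the 3 genes and their single values are uncertain. *Gm20716* was counted at 2134, 2396, 2193, 2642 and 2469 in juveniles and at 1605, 1436, 1776, 1601 and 1583 in adults labelled Adnp-HT. Every adult was below every juvenile, the adult mean was 67.6% of the juvenile mean, and the exact permutation test gave p = 0.00794, the smallest that 5 libraries against 5 allow (adjusted over the 3 genes, 0.0238). In WT the adult mean was 89.7% of the juvenile mean (exact permutation test, p = 0.0476). *Dpm1* (ENSMUSG00000078919, chromosome 2 from 168209048 to 168230591, minus strand) was counted at 751, 819, 996, 679 and 1033 in juveniles and at 937, 1231, 813, 1053 and 858 in adults, and its groups overlapped (exact permutation test, p = 0.254). The sum of *Adnp* and *Gm20716* in adults was 87.2% of that in juveniles with the label Adnp-HT and 93.1% in WT. The sum of all 3 genes was 91.4% and 94.4%, so the age difference of *Gm20716* was larger than that of the sums that contain it. Against WT, *Gm20716* was at 84.5% in juveniles and 63.7% in adults, *Dpm1* at 152% and 164%, and the sum of *Adnp* and *Gm20716* at 95.4% and 89.4%, and the sum of all 3 at 101% and 97.9%.

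The label hippocampus was checked against markers of its neurons. *Neurod6* of pyramidal neurons, *Zbtb20* of hippocampal neurons, *Wfs1* of CA1, *Prox1* and *C1ql2* of dentate granule neurons and the vesicular glutamate transporter *Slc17a7* were all present in every library. *Neurod6* was counted at 6919 ± 548 (SD, n = 5) in juveniles and 6024 ± 191 in adults, *Prox1* at 4751 ± 336 and 3869.6 ± 356, and *Slc17a7* at 46001 ± 2281 and 41758 ± 1575. Of 20 markers of pyramidal and granule neurons, 6 rose and 5 fell, against 39.6% of all genes called (19.7% up and 19.8% down), with a median of −0.020 whose sign changed between fits. These became 3 and 3 with adults 4 and 5 alone, and 0 and 1 with the covariate, both fits being described below. *Wfs1* fell from 6324 ± 397 to 4047 ± 443 (log2 difference −0.65 ± 0.068 SE, adjusted p = 7.27e-06). *C1ql2* rose from 1206 ± 182 to 1817 ± 121 (log2 difference 0.60 ± 0.085 SE, adjusted p = 9.41e-05), and the desmosome gene *Dsp* of dentate granule neurons rose as well (log2 difference 0.62 ± 0.12 SE, adjusted p = 8.11e-04). Neither was called with the covariate (adjusted p from 0.0549 to 0.125), although the difference of *C1ql2* was 0.59 in that fit. The summed count of the 20 markers was 76358, 80836, 72513, 68875 and 73509 in juveniles and 77421, 74500.2, 75604, 74668 and 75951 in adults, and the groups overlapped. Markers of thalamus, striatum and cortex, which border the hippocampus, rose in 6 of 20 (30.0%) and fell in 1, with overlapping sums whose adult mean was 108% of the juvenile mean. Without adult 2, which had the highest sum, 3 rose and 3 fell, without adult 3 3 and 2, with adults 4 and 5 alone 3 and 1, and with the covariate none was called.

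Choroid plexus, the epithelium that secretes cerebrospinal fluid and lies against the hippocampus in the ventricle, separated the ages. All 14 of its markers rose, with a median log2 difference of 3.48 beside 0.0078 over all genes. Their summed normalized count was 5483, 5430.0, 6493, 9261 and 5083 in juveniles and 198203, 111256, 98048, 37615 and 14689 in adults. Adults 1 to 3 were highest, adult 5 was nearest to the juveniles, and the groups did not overlap. *Ttr*, the thyroxine carrier of cerebrospinal fluid, formed 60.0% of the sum. It was counted at 192, 40.1, 760.3, 2463 and 43.4 in juveniles and 131071, 70989, 62839.5, 20261 and 6087 in adults. No marker was at 0 in all libraries of a group. *Enpp2*, which oligodendrocytes express too, formed most of the juvenile sums and was counted at 4512, 4695, 5001, 5904 and 4392 in juveniles and 48424, 29757, 26156, 13708 and 6641 in adults. Among WT libraries the sums were 5929.8, 5825, 92378, 4886 and 5729 in juveniles and 96947, 61664, 318216, 176539 and 158495 in adults, and the third juvenile stood with the adults.

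Each count below was therefore also taken with adults 4 and 5 alone against the 5 juveniles, and with the log2 choroid plexus sum as a covariate in all 10 libraries. Both were chosen after the sums had been seen. With adults 4 and 5 alone, 13 of the 14 choroid plexus markers rose, with a median of 1.91. With the covariate, which is the sum of these markers, 2 rose and 1 fell, with a median of 0.23. As the sums did not overlap between the ages, the covariate holds part of the age difference itself, and whether choroid plexus tissue accounts for any given change was not tested. Many of the list medians nearer 0 than 0.1 moved by more than 1.5 times in these fits or without 1 library, and no direction is read from them. Ages may also have been sequenced in different batches, which the labels do not give, and such batches cannot be told apart from age. For juvenile replicates 3 and 5 the labels give P20 and P21, and the names of the data columns give P21 and P20.

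**Figure D1:**
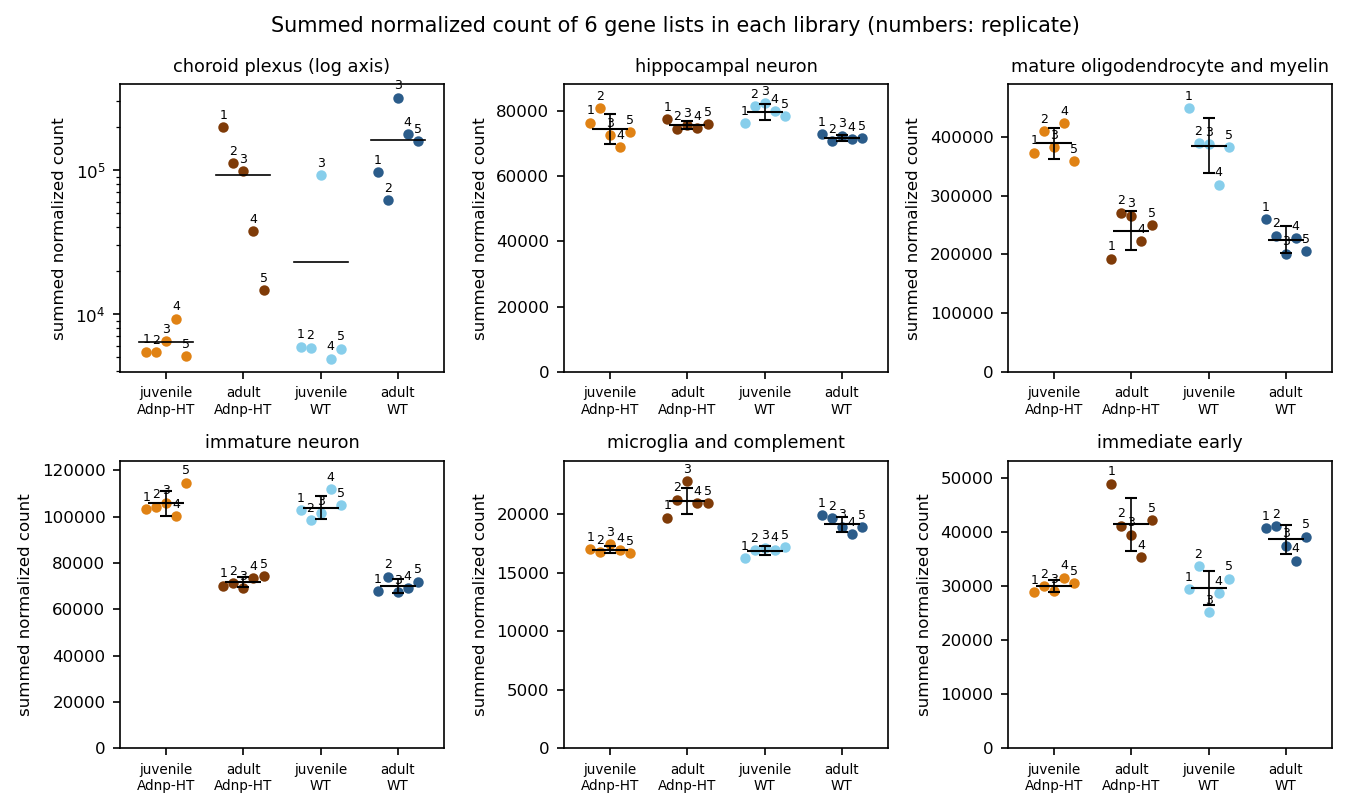
Summed normalized count of the markers of 6 cell types or gene groups in each library (points, numbered by replicate; choroid plexus on a log axis, the others from 0), with the group mean and, except for choroid plexus, the SD (n = 5). Among libraries labelled Adnp-HT juvenile choroid plexus sums lay between 5083 and 9261 and adult ones between 14689 and 198203, the hippocampal neuron sums overlapped, and the other 4 did not.

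Adult and juvenile libraries labelled Adnp-HT differed in 6972 of 17616 genes (39.6%), of which 3476 (19.7%) rose and 3496 (19.8%) fell, the shares beside which the counts of each list are to be read. The groups did not overlap for 4778 genes (27.1%), and 4685 of these were among the genes called. Most changes were small. The median size of a called difference was 0.32, 5002 of the called genes (71.7%) changed by less than 0.5, and 604 changed by 1 or more, 374 of them upward and 230 downward. The first principal component held 45.6% of the variance of the 10 libraries and separated the ages, with adults 4 and 5 at 25.3 and 22.2, the other adults from 38.7 to 40.0 and the juveniles from −39.3 to −26.1. A fit with adults 4 and 5 alone called 4075 genes (23.2%, 10.7% up and 12.5% down), and 1814 of the 3476 increases and 2081 of the 3496 decreases were among them. With the choroid plexus covariate, 1628 were called (9.24%, 3.98% up and 5.26% down), 663 and 812 of the same genes. All 3 fits called 1467 genes, 655 higher and 812 lower in adults.

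**Figure D2:**
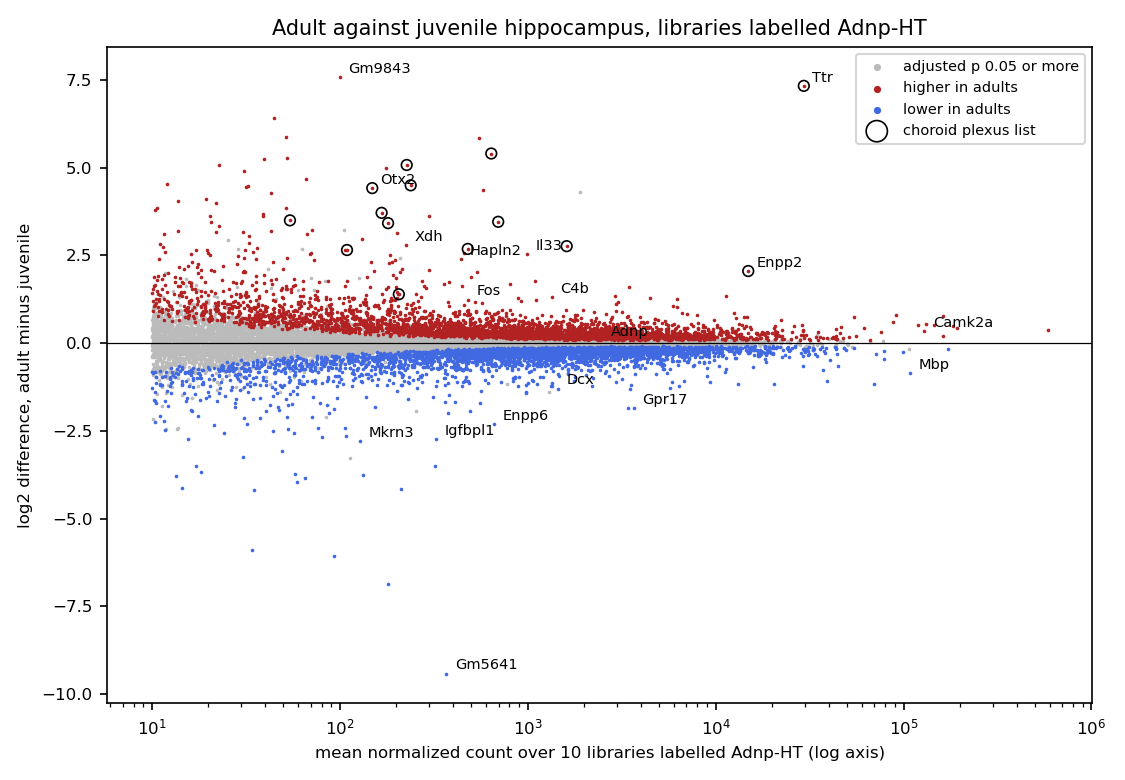
Log2 difference, adult minus juvenile, of each of 17616 genes against its mean normalized count over 10 libraries labelled Adnp-HT (log axis); red and blue points had an adjusted p under 0.05, and circles mark the choroid plexus list. *Ttr* stands at 7.33, *Gpr17* at −1.84 and *Camk2a* at 0.35, and *Gm5641* and *Gm9843* are drawn at fitted values although 1 of their groups is listed at 0.

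The largest increases among genes with a mean of at least 100 and groups that did not overlap were mostly choroid plexus genes. After the pseudogene *Gm9843*, which was listed at 0 in all juveniles and at 279, 145, 190.2, 254 and 133 in adults, they were *Ttr*, the frizzled-related *Mfrp*, the chloride channel gene *Clic6*, the bicarbonate transporter *Slc4a5*, the potassium channel genes *Kcne2* and *Kcnj13*, the homeobox gene *Otx2*, coagulation factor *F5*, the water channel *Aqp1*, *1500015O10Rik*, *Tmem72*, the folate receptor *Folr1*, the tight junction gene *Cldn2* and *Wdr86*. Without *Gm9843*, the differences ran from 2.96 for *Wdr86* to 7.33 for *Ttr*. All 15 were still called with adults 4 and 5 alone, with *Ttr* at 5.59 and *Wdr86* at 1.47. With the choroid plexus covariate, *Gm9843*, *Clic6*, *Otx2* and *F5* were called, the last 3 at 2.25, 1.97 and 1.13, and the other 11 were not (adjusted p from 0.0659 to 0.864). Of the 15, 8 are members of the list whose sum is the covariate, so a loss of these is built into that fit. Among genes that all 3 fits called, the next largest increases were those of *Xdh*, *Serpinb1a*, *Plin4* and *Il33*, which were chosen after their values were seen. *Il33*, a cytokine of glial nuclei, was counted at 246, 278, 318, 306 and 303 in juveniles and 1371, 1805, 1894, 1568 and 1829 in adults. Every adult had more than 4 times the count of every juvenile (log2 difference 2.54 ± 0.094 SE, adjusted p = 9.93e-10), and the covariate fit gave 2.68 (adjusted p = 1.05e-05).

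The largest decreases were of genes of varied roles, oligodendrocyte genes among them, and of transcripts of unknown role. The pseudogene *Gm5641* was counted at 457, 986, 449, 599 and 1206 in juveniles and was listed at 0 in all 5 adults labelled Adnp-HT. The unclassified transcript *Gm37376* was counted at 142, 370.2, 370.3, 476 and 313 in juveniles and 0, 0, 0, 0 and 133 in adults, and was called with adults 4 and 5 alone but not with the covariate (adjusted p = 0.618). Pseudogenes share reads with near-identical copies, and *9630013A20Rik* is antisense to another transcript while the library kit does not keep the strand, so these values are uncertain. *9630013A20Rik* was counted at 545, 599, 574, 583 and 657 in juveniles and 37.6, 78.1, 53.0, 38.5 and 58.2 in adults, with no overlap (log2 difference −3.50 ± 0.17 SE, adjusted p = 1.38e-08). Next came the imprinted ring finger gene *Mkrn3*, the immature neuron gene *Igfbpl1*, the secreted protease gene *Adamts18*, the small GTPase gene *Rab7b*, the oligodendrocyte genes *Enpp6*, *Rnf122*, *Tmem163*, *Ugt8a* and *Gpr17*, the unclassified transcript *Gm37111*, the radial glia gene *Fabp7* and the scaffold gene *Cnksr3*. From *Mkrn3* to *Cnksr3* the differences ran from −2.80 to −1.69, and all of these were called in all 3 fits. *Adamts18* was counted at 173, 198, 161, 178 and 220.3 in juveniles and 31.3, 27.8, 29.9, 22.7 and 32.2 in adults, and its groups were far apart (log2 difference −2.65 ± 0.14 SE, adjusted p = 2.09e-08).

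Genes of premyelinating oligodendrocytes fell. Of 24 genes of oligodendrocyte precursors and newly formed oligodendrocytes, 19 fell (79.2%, against 19.8% of all genes) and 1 rose, which was not called without adult 2, adult 3, juvenile 1 or juvenile 5. The median was −0.59. *Gpr17* (ENSMUSG00000052229, chromosome 18 from 31942997 to 31949636, minus strand), a receptor that marks the premyelinating stage, was counted at 5530.0, 5517, 5589, 6008 and 5992 in juveniles and 1771, 1667, 1659, 1593 and 1331 in adults. The lowest juvenile was more than 3 times the highest adult (log2 difference −1.84 ± 0.064 SE, adjusted p = 5.96e-10). *Enpp6* (ENSMUSG00000038173, chromosome 8 from 46986887 to 47096762, plus strand), a choline phosphodiesterase of newly formed oligodendrocytes, was counted at 1054, 1136, 994, 1222 and 1100.0 in juveniles and 167, 266, 253, 191 and 253 in adults, again with no overlap (log2 difference −2.30 ± 0.12 SE, adjusted p = 2.09e-08). *Rnf122*, a ubiquitin ligase gene, fell by 1.99 on the log2 scale, and the zinc transporter gene *Tmem163* fell by 1.94. *Cspg4*, the NG2 proteoglycan of precursors and pericytes, fell by 0.41, and the phosphatase gene *Ptprz1*, the most abundant of the list, by 0.21 (adjusted p = 2.30e-04). The summed count of the list was 53731, 56011, 54110.2, 53659.9 and 55655 in juveniles and 36076, 39807, 40575, 38501 and 38189 in adults. Decreases numbered 16 of 24 with adults 4 and 5 alone and 12 with the choroid plexus covariate, without *Cspg4* (adjusted p = 0.139). Fewer cells of a type and less RNA in each cell cannot be told apart in whole tissue.

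Genes of mature oligodendrocytes and myelin divided. Of 33, 17 fell (51.5%) and 9 rose (27.3%). The median of −0.21 moved to −0.083 without adult 1, −0.12 without juvenile 1, −0.32 without adult 3 and −0.061 with the covariate. *Mbp*, myelin basic protein, fell from 139088 ± 9087 (SD, n = 5) to 77169 ± 11949.7 (log2 difference −0.86 ± 0.089 SE, adjusted p = 6.44e-06). *Ugt8a*, which makes galactosylceramide, the chief glycolipid of myelin, had the largest decrease of the list and was counted at 4864, 5774, 5328, 5574 and 5191 in juveniles and 1379, 1589, 1638, 1338 and 1503 in adults (log2 difference −1.84 ± 0.061 SE, adjusted p = 5.96e-10). *Tspan2*, a tetraspanin of early myelination, fell by 1.27 on the log2 scale. *Hapln2* and *Apod* went the other way. *Hapln2* (ENSMUSG00000004894, chromosome 3 from 88021750 to 88027583, minus strand), a link protein of the matrix at nodes of Ranvier, was counted at 185, 162, 186, 168 and 53.4 in juveniles and 586, 787, 792, 750.1 and 769.7 in adults. All adults were above all juveniles, and juvenile 5 was the lowest of its group (log2 difference 2.40 ± 0.27 SE, adjusted p = 1.53e-05). *Apod*, a lipid-binding lipocalin, was counted at 1706, 1517, 1953, 1764 and 1237 in juveniles and 2734, 5390.4, 4813, 3956 and 4008 in adults, and adult 1 was the lowest adult but stayed above the juveniles (log2 difference 1.33 ± 0.16 SE, adjusted p = 1.92e-05). The summed count of the 33 genes was 372845, 409138, 382400.0, 422681 and 358805 in juveniles and 192341, 271081, 265594, 221922 and 249999 in adults, and the adult mean was 61.7% of the juvenile mean. Adults 4 and 5 alone gave 14 decreases and 8 increases, and the covariate 10 and 4, *Mbp*, *Ugt8a*, *Tspan2*, *Hapln2* and *Apod* among them.

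**Figure D3:**
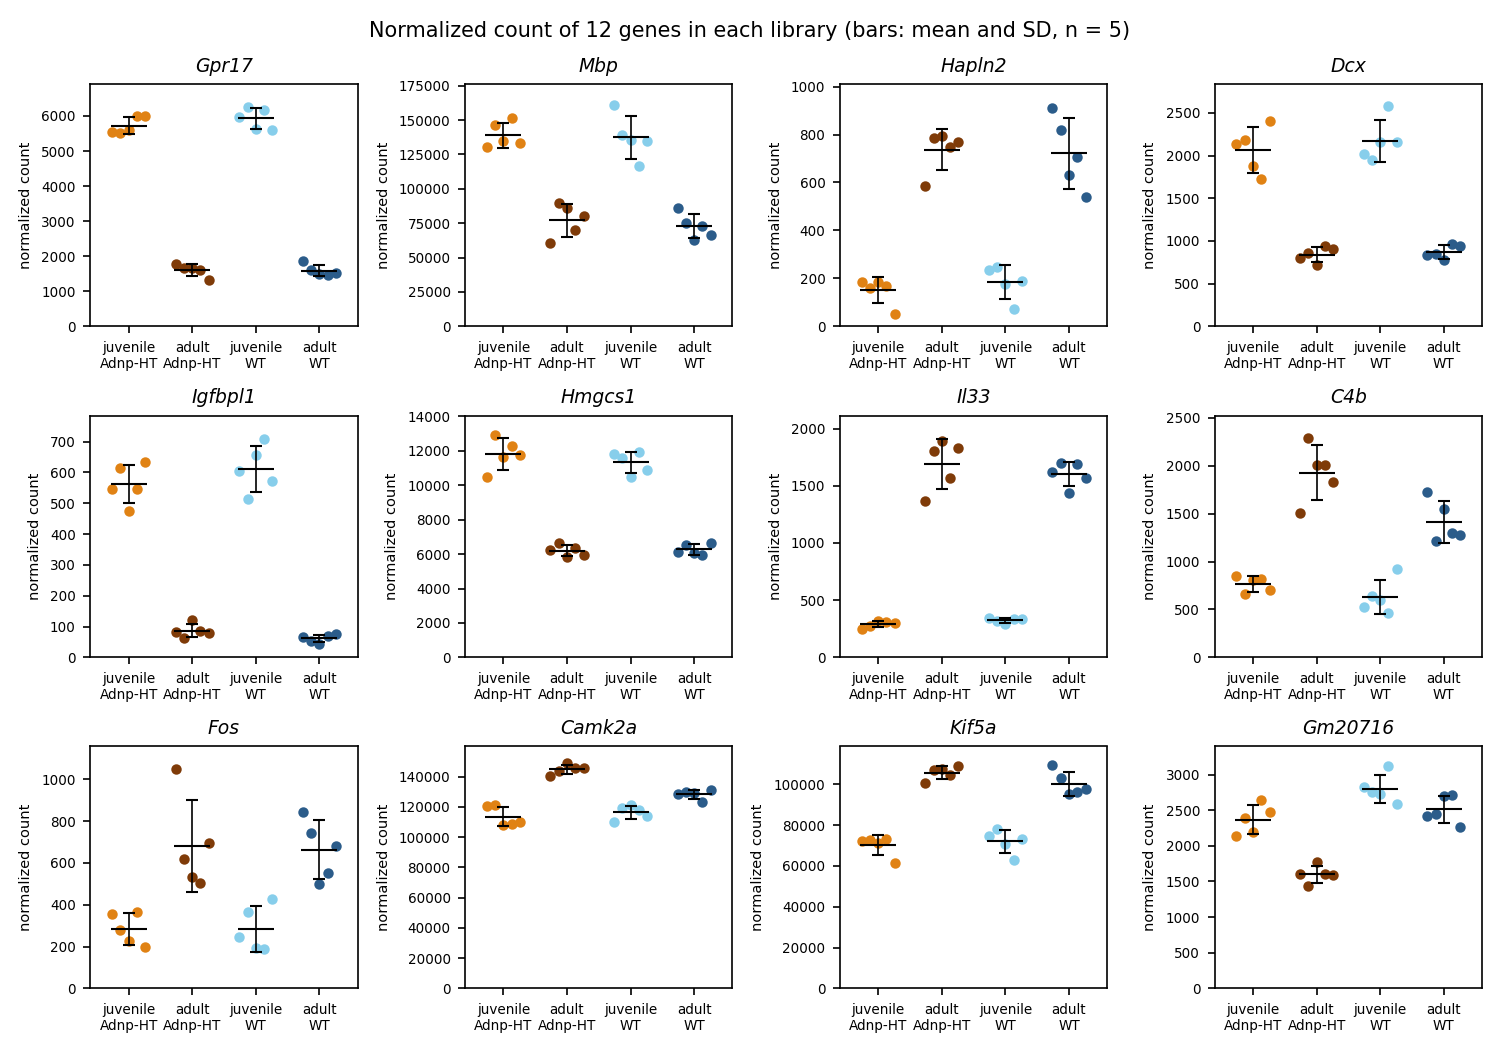
Normalized count of 12 genes in each library of the 4 groups of 5 (points in order of replicate), with the group mean and SD. Among libraries labelled Adnp-HT the ages do not overlap for any of the 12: *Gpr17*, *Mbp*, *Dcx*, *Igfbpl1*, *Hmgcs1* and *Gm20716* were lower, and *Hapln2*, *Il33*, *C4b*, *Fos*, *Camk2a* and *Kif5a* higher in adults.

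Genes of immature neurons fell nearly throughout. Of 32 tested, 27 fell (84.4%, against 19.8% of all genes), none rose, and the median was −0.70. *Dcx* (ENSMUSG00000031285, chromosome X from 143855842 to 143933311, minus strand), the microtubule protein of migrating neurons, was counted at 2139, 2182, 1875, 1723 and 2403 in juveniles and 795, 857, 713, 935 and 902 in adults. Every adult was below every juvenile (log2 difference −1.29 ± 0.091 SE, adjusted p = 2.52e-07). *Igfbpl1* (ENSMUSG00000035551, chromosome 4 from 45809468 to 45826923, minus strand), a gene of neural progenitors and young neurons, was counted at 545, 614, 476, 546 and 633 in juveniles and 82.7, 63.6, 122, 83.9 and 78.6 in adults. It was the largest decrease of the list (log2 difference −2.72 ± 0.14 SE, adjusted p = 2.35e-08). *Marcksl1*, an actin-binding relative of Marcks, was counted at 4742, 4669, 4906, 4672 and 5777 in juveniles and 1749.8, 1940.2, 1981, 2148 and 2273 in adults, with juvenile 5 the highest (log2 difference −1.30 ± 0.072 SE, adjusted p = 3.98e-08). *Nrep*, a gene of regrowing neurons, fell by 1.23 on the log2 scale, and the growth cone gene *Dpysl5* fell by 1.09. The most abundant members moved less, *Tubb5* by −0.22 and the microtubule regulator *Stmn2* by −0.66. Summed over the list, counts were 103344, 104257, 106071, 100186 and 114612 in juveniles and 70205, 71199, 69237, 73390.4 and 74178 in adults, 67.8% of the juvenile mean. The fit of adults 4 and 5 alone called 25 decreases and the covariate 18, *Dcx*, *Igfbpl1*, *Marcksl1*, *Nrep*, *Dpysl5* and *Stmn2* among them but not *Tubb5* (adjusted p = 0.157).

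Cell cycle genes fell as well. Of 38 tested, 19 fell (50.0%), none rose, and the median was −0.53. *Mki67*, the nuclear antigen of dividing cells, was counted at 248, 270.2, 209.7, 183 and 180.1 in juveniles and 105, 158, 112, 122 and 127 in adults. The groups did not overlap (log2 difference −0.80 ± 0.14 SE, adjusted p = 4.75e-04). *Hmgb2*, a chromatin protein of proliferating progenitors, was counted at 150.2, 209, 215, 132 and 150.4 in juveniles and 87.8, 73.8, 106, 124 and 63.2 in adults, all adults below all juveniles by a narrow gap (log2 difference −0.92 ± 0.19 SE, adjusted p = 0.00175). *Bub1b*, a mitotic checkpoint kinase, was counted at 96.5, 156, 187, 203 and 188 in juveniles and 82.0, 69.1, 159, 52.5 and 105 in adults, and adults 3 and 5 lay within the juvenile range (log2 difference −0.88 ± 0.27 SE, adjusted p = 0.0178). *Ccne2*, a cyclin of S phase entry, fell by 0.43 (adjusted p = 0.00296). Of the replication genes, *Pcna* was counted at 1016 ± 57.9 in juveniles and 954 ± 35.2 in adults (adjusted p = 0.178), and *Mcm6* at 476 ± 61.4 and 509 ± 32.9 (adjusted p = 0.359). In the fit of adults 4 and 5 alone 13 of 40 tested fell. The genes with low counts carry the median, which over the 14 members with a mean of at least 100 was −0.023, with 5 decreases. With the choroid plexus covariate 2 of 38 fell, a share like the 5.26% of all genes in that fit, while the median over the 38 was −0.58. *Mki67*, *Hmgb2*, *Bub1b* and *Ccne2* were not called there (adjusted p from 0.0784 to 0.291).

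Promoters of the cell cycle list, from 250 bases before to 50 after the start in RefSeq on GRCm38.p6, were searched on both strands for TTTGAA, the core of the cell cycle genes homology region, and for CCAAT, the box bound by nuclear factor Y. Of 30 promoters found for the 38 genes, 18 (60.0%) held TTTGAA and 25 (83.3%) held CCAAT, beside 17.9% and 37.4% of all 32851 promoters of this length. Among the 14 of them whose genes fell, 11 (78.6%) and 13 (92.9%) did. The match is a description of letters and not a binding site. The promoters of 2 of the genes above and of *Top2a*, the DNA topoisomerase of dividing cells, chosen after its values were seen (log2 difference −1.56 ± 0.25 SE, adjusted p = 2.32e-04), are shown because their genes fell and their promoters hold several matches. Capitals mark either motif on either strand. They lie at chr11:99024140-99024439 on the minus strand (*Top2a*), chr7:135716330-135716629 on the minus strand (*Mki67*) and chr8:57511593-57511892 on the plus strand (*Hmgb2*).
Top2a: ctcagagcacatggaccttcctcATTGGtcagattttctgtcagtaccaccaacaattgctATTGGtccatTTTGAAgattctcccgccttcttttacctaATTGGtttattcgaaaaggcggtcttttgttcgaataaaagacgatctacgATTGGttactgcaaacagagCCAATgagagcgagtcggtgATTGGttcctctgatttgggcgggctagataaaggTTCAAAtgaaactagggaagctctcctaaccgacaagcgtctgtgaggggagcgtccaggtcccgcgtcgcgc
Mki67: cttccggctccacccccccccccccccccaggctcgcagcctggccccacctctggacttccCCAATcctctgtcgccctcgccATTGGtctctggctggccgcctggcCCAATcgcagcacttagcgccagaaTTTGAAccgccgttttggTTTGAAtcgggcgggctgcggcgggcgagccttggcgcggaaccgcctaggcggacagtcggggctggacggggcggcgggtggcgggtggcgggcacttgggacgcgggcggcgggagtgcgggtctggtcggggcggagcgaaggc
Hmgb2: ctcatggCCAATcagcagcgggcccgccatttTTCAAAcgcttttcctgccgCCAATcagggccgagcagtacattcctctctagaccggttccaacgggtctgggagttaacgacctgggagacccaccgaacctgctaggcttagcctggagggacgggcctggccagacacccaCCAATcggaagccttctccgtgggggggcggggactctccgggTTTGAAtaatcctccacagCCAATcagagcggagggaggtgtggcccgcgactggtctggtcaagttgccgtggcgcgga

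Genes of the matrix around neurons mostly fell. Of 18 genes of perineuronal nets and the hyaluronan matrix, 12 fell (66.7%) and 2 rose, with a median of −0.39. *Tnc*, tenascin C of the developing brain, was counted at 404, 496, 415, 493 and 456 in juveniles and 231, 206, 192, 175 and 174 in adults, with every adult below every juvenile (log2 difference −1.21 ± 0.095 SE, adjusted p = 6.72e-07). *Adamts4*, a protease that cleaves the chondroitin sulfate proteoglycans, fell from 1846 ± 138 to 843 ± 84.2 (log2 difference −1.13). *Hapln1*, a link protein that ties these proteoglycans to hyaluronan, was counted at 1500.4, 1533, 1714, 1487 and 1741 in juveniles and 839, 939, 792, 863 and 676 in adults (log2 difference −0.96 ± 0.080 SE, adjusted p = 1.06e-06). Its relative *Hapln4*, a link protein of mature nets, was counted at 2322, 2437, 2109, 2414 and 1860.1 in juveniles and 4093, 4116, 4134, 4238 and 4132 in adults (log2 difference 0.90 ± 0.063 SE, adjusted p = 2.48e-07). The log2 ratio of *Hapln4* to *Hapln1* thus moved from 0.48 to 2.34, without overlap. *Tnr* and *Ptprz1*, the most abundant of the list, fell by 0.24 and 0.21, and *Bcan*, brevican, was called at −0.12 (adjusted p = 0.0414) with overlapping groups, was called in 4 of 10 fits that each left out 1 library, and turned to 0.031 with the covariate. With adults 4 and 5 alone 10 fell and 2 rose, and with the covariate 5 and 2, without *Tnr* (adjusted p = 0.222).

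Collagens followed in part. Of 21, 10 fell (47.6%) and 2 rose, with a median of −0.18. The decreases numbered 6 without adult 2, without juvenile 3 and with all 20 libraries, and 5 without the mean-variance trend, and 1 rose without any one of 7 of the libraries. *Col15a1* of vascular basement membranes fell by 1.18 (adjusted p = 8.25e-05) and *Col3a1*, a fibrillar collagen of meninges and vessels, by 1.29 (adjusted p = 0.00388). *Col1a1*, the chain of type I collagen, was counted at 628, 467, 678, 665 and 461 in juveniles and 304, 413, 448, 372 and 288 in adults, and adult 3 came closest to the juveniles (log2 difference −0.67 ± 0.14 SE, adjusted p = 0.00214). *Col4a1* and *Col4a2* of all basement membranes fell by 0.46 and 0.18. *Col8a1*, a short-chain collagen, rose with the choroid plexus sum. It was counted at 41.6, 37.6, 55.9, 64.0 and 25.9 in juveniles and 639.7, 439.6, 363, 117 and 77.5 in adults, in the order of that sum in adults (log2 difference 2.50 ± 0.49 SE, adjusted p = 0.00109), and with the covariate its difference turned to −0.51 (adjusted p = 0.375). The covariate gave 4 decreases, *Col15a1* and *Col1a1* among them, and 0 increases, while *Col3a1*, *Col4a1* and *Col4a2* were not called (adjusted p from 0.240 to 0.467), *Col4a2* not with adults 4 and 5 alone either (adjusted p = 0.0522).

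Axon growth and guidance genes fell more often than they rose, 22 of 44 (50.0%) against 6, with a median of −0.17. *Sema3c* and *Sema6a*, a secreted and a membrane semaphorin that steer growing axons, fell by 1.22 and 1.21. *Sema3c* was counted at 1930.3, 1988, 1835, 1454 and 2054 in juveniles and 866, 724, 895, 726 and 758 in adults, with no overlap (adjusted p = 4.55e-07). *Dpysl3*, an effector of semaphorin signalling in growth cones, fell from 4051 ± 541 to 1877 ± 97.0 (adjusted p = 1.63e-07). *Slit1*, a repellent of axons, went the other way and was counted at 8594, 8329.8, 8202, 8479 and 8005 in juveniles and 10917, 10500.1, 10959, 11524 and 11707 in adults (log2 difference 0.42 ± 0.035 SE, adjusted p = 1.31e-06). Of the 44, 15 fell and 4 rose with adults 4 and 5 alone, and with the covariate 7 and 3.

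Within the cytoskeleton, tubulins of growing neurons fell, and a motor of axons and a stabilizer of microtubules rose. Of 21 genes, 11 fell (52.4%) and 6 rose (28.6%), with a median of −0.11. These became 8, 6 and −0.057 with adults 4 and 5 alone, and 7, 3 and −0.027 with the covariate. *Tubb2b*, a beta tubulin of developing neurons, was counted at 11503, 14287, 12718, 11313 and 13932 in juveniles and 6372, 4969.8, 6429, 6397 and 5768 in adults (log2 difference −1.09 ± 0.080 SE, adjusted p = 3.62e-07). *Tuba1a*, the alpha tubulin of new neurons, fell by 0.77 and *Tubb2a* by 0.65. *Kif5a*, the kinesin that carries cargo along axons, was counted at 72313, 72804, 71242, 73358 and 61268 in juveniles and 100735, 107245, 107469, 104497 and 108924 in adults, and juvenile 5 was the lowest of all (log2 difference 0.59 ± 0.047 SE, adjusted p = 6.80e-07). *Map1a*, which stabilizes microtubules of mature dendrites, rose from 37784 ± 2206 to 50002 ± 1349 (log2 difference 0.41 ± 0.039 SE, adjusted p = 3.33e-06). *Nefm*, the medium neurofilament chain, fell by 0.11 (adjusted p = 0.0230), and with juveniles and adults at 1668 ± 87.1 and 1776 ± 142 the heavy chain *Nefh* was not called (adjusted p = 0.224). *Nefm* was called in 5 of the 10 fits that left out a library, and in neither of the 2 further fits (adjusted p = 0.192 and 0.676).

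Synaptic genes changed by less. Of 40 genes of postsynaptic scaffolds and CaMKII signalling, 19 rose (47.5%, against 19.7% of all genes) and 10 fell (25.0%), with a median of 0.075. *Camk2a* (ENSMUSG00000024617, chromosome 18 from 60925618 to 60988152, plus strand), the alpha subunit of the kinase that sets synaptic strength, was counted at 120302, 120974, 108254, 108617 and 109703 in juveniles and 140247, 143470.0, 148724, 145757 and 145528 in adults. Adults were higher without overlap (log2 difference 0.35 ± 0.039 SE, adjusted p = 1.07e-05). Under quantile normalization, which sets the values of the top ranks, this difference was −0.0065, and under total scaling 0.34. *Camk2b*, its partner, rose by 0.15 (adjusted p = 0.00128). *Shank1*, a master scaffold of the postsynaptic density, was counted at 17729, 17592, 16916, 16718 and 17416 in juveniles and 24253, 24023, 22609, 22994 and 23587 in adults (log2 difference 0.44 ± 0.030 SE, adjusted p = 1.92e-07). *Camkk1*, a kinase that activates other CaM kinases, rose by 0.44, and *Camk4*, the nuclear one, fell by 0.43. The calcineurin gene *Ppp3cb* was counted at 12226, 12534, 12160.5, 11646 and 12584 in juveniles and 9639, 9276, 9116, 9374 and 9976 in adults (log2 difference −0.37 ± 0.034 SE, adjusted p = 2.26e-06), and *Dlg4*, the scaffold PSD-95, fell by 0.088 (adjusted p = 0.0142). Adults 4 and 5 alone gave 14 increases and 7 decreases, and the covariate 10 and 3. *Dlg4* was called in neither (adjusted p = 0.208 and 0.454), and *Camkk1* and *Camk4* not with the covariate (adjusted p from 0.0959 to 0.523).

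Receptor subunits for glutamate moved in both directions. Of 18 NMDA, AMPA and kainate receptor subunits, 7 fell (38.9%) and 3 rose (16.7%), with a median of −0.050 that turned to 0.047 with the covariate. With adults 4 and 5 alone, 5 of 17 tested fell and 4 rose. The NMDA receptor subunits of early life *Grin3a* and *Grin2d* fell by 0.49 and 0.39, and the kainate receptor subunit *Grik1* by 0.51. *Grin3a* was counted at 1329, 1184, 1354, 1354 and 1423 in juveniles and 932, 894, 871, 1025 and 1019 in adults (log2 difference −0.49 ± 0.062 SE, adjusted p = 3.69e-05). *Gria1*, the most abundant AMPA receptor subunit of the list, rose by 0.12 (adjusted p = 0.00892), and *Gria2* was counted at 31360.4 ± 2239.9 and 29415 ± 1404 (adjusted p = 0.156). *Grin2a*, the NMDA receptor subunit of mature synapses, was counted at 13319.8, 13703, 11618, 11597 and 11957 in juveniles and 14745, 13719, 13608, 14022 and 15048 in adults and rose (log2 difference 0.20 ± 0.051 SE, adjusted p = 0.00726), with adult 3 just below juvenile 2. *Grin2b*, the subunit of young synapses, was counted at 26973 ± 1424 and 29446 ± 2272 (adjusted p = 0.0705). Of 7 metabotropic receptors 2 rose and none fell (1 fell without adult 2), with a median of 0.047 that was 0.20 with the covariate and between 0.019 and 0.074 without adult 2 or 5 or juvenile 1 or 4. *Grm3* of astrocytes and presynaptic sites rose by 0.30, and *Grm5* had an adjusted p of 0.448. With the covariate 1 of the 18 rose, *Gria1*, and 1 fell, *Grin2d*, and *Grm3* of the 7 was called. *Grin3a*, *Grik1* and *Grin2a* were called with adults 4 and 5 alone but not with the covariate (adjusted p from 0.0998 to 0.401).

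Presynaptic genes were called about equally in both directions, 10 of 36 up (27.8%) and 13 down (36.1%), with a median of −0.0059 whose sign changed without adult 3, without juvenile 1 and with the covariate. *Rims3*, a scaffold of the active zone, was counted at 1717, 1424, 1653, 1488 and 1396 in juveniles and 1958, 3122, 2176, 2146 and 2175 in adults, and adult 2 was the highest (log2 difference 0.58 ± 0.10 SE, adjusted p = 6.56e-04). The fast SNARE gene *Vamp1* rose by 0.36, complexin *Cplx2* by 0.30 and *Snap25*, the abundant SNARE protein gene, by 0.19 (adjusted p = 5.68e-04). *Stx1a*, a syntaxin of the same fusion complex, fell by 0.40 (adjusted p = 4.38e-06) and the vesicular glutamate transporter *Slc17a8* by 0.50 (adjusted p = 0.00999). Of the 36, 8 rose and 5 fell with adults 4 and 5 alone, and with the covariate 4 and 1, without *Rims3* and *Slc17a8* (adjusted p from 0.0567 to 0.167).

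Interneuron genes fell more often than they rose. Of 20 interneuron genes, 12 fell (60.0%) and 1 rose, with a median of −0.30. *Reln*, the glycoprotein secreted by a class of interneurons, was counted at 3250.3, 3624, 3743, 3617 and 3818 in juveniles and 1927, 2228, 2086, 2383 and 2249.7 in adults, with no overlap (log2 difference −0.73 ± 0.058 SE, adjusted p = 7.00e-07). *Vip*, a peptide of interneurons that inhibit other interneurons, was counted at 545, 549.6, 535, 465 and 479 in juveniles and 313, 346, 308, 368 and 347 in adults (log2 difference −0.61 ± 0.074 SE, adjusted p = 2.61e-05). *Calb2*, calretinin, which young granule neurons express too, fell by 0.58 and *Nxph1*, a ligand of neurexins, by 0.55. *Gad1*, the enzyme that makes GABA, fell by 0.11 (adjusted p = 0.0102). Of 14 GABA-A receptor subunits 6 were called (42.9%), near the 39.6% of all genes. The 4 decreases became 2 without adult 2, without adult 3 and without adult 4. The median of −0.045 turned to 0.088 with the covariate, and was −0.024 without adult 3, −0.074 without adult 5 and −0.076 without juvenile 4. *Gabra5*, a subunit of receptors outside synapses, fell by 0.27 (adjusted p = 3.16e-04), *Gabra2* by 0.24 and *Gabrg3* by 0.24 (adjusted p = 0.0255 and 0.0416), and *Gabrd*, the delta subunit, rose by 0.25. Of these, *Gabra5* was called with adults 4 and 5 alone and the others were not (adjusted p from 0.0770 to 0.424), none of the 14 was called with the covariate, and *Gabrg3* then had 0.051. With the covariate 3 of the interneuron genes fell, *Reln* and *Nxph1* among them, but not *Vip*, *Calb2* or *Gad1* (adjusted p from 0.0786 to 0.592). The median of the interneuron genes was −0.21 in that fit, and *Calb2* had −0.61.

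Voltage-gated sodium and potassium channels rose in 11 of 36 (30.6%) and fell in 6 (16.7%), against 19.7% and 19.8% of all genes, with a median of 0.061. *Hcn2*, of the hyperpolarization-activated current, rose by 0.33, the auxiliary sodium channel subunit gene *Scn4b* by 0.48, the potassium channel gene *Kcnd1* by 0.44 and the abundant auxiliary subunit gene *Kcnab2* by 0.25. *Scn2a*, the sodium channel of young axons, fell by 0.21 (adjusted p = 0.00586) and had 0.0038 with the covariate, and *Scn8a*, that of mature axon initial segments, was counted at 14589.7 ± 838 and 15292 ± 366 (adjusted p = 0.172). Channel increases numbered 9 and decreases 2 with adults 4 and 5 alone, and with the covariate 6 and 0, *Hcn2* among the increases but not *Scn4b*, *Kcnd1* or *Kcnab2* (adjusted p from 0.0777 to 0.847).

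A ratio of 2 genes in the same library does not depend on a scaling factor of that library. For 12 pairs known from development, of which 10 are given here, the log2 ratio was compared between ages by two-sided exact permutation tests, whose smallest p with 5 against 5 is 0.00794, adjusted over the 12. Besides *Hapln4* to *Hapln1* (difference 1.86, adjusted p = 0.0159), the ratio of *Tubb4a* to *Tubb2b* rose by 0.96. That of *Slc12a5*, the chloride extruder of mature neurons, to *Slc12a2*, the chloride importer, was 2.29, 2.14, 2.32, 2.28 and 2.28 in juveniles and 2.34, 2.67, 2.40, 2.93 and 2.86 in adults, a rise of 0.38, with adults 4 and 5 the highest. Choroid plexus expresses *Slc12a2* too, and adults 4 and 5 had the lowest choroid plexus sums. In WT the ratio of *Slc12a5* to *Slc12a2* differed by 0.12, with overlapping groups (exact permutation test, adjusted p = 0.563). *Scn8a* to *Scn2a* was 0.21, 0.22, 0.18, 0.28 and 0.16 in juveniles and 0.59, 0.45, 0.56, 0.40 and 0.44 in adults, higher in each adult than in any juvenile (difference 0.28). *Camk2a* to *Camk2b* rose by 0.20, which turned to a negative value under quantile normalization, and *Nefh* to *Nefm* by 0.20 with overlapping groups (exact permutation test, adjusted p = 0.0408). *Dlg4* to *Dlg3* fell (difference −0.10, exact permutation test, adjusted p = 0.0159). *Grin2a* to *Grin2b* differed by 0.072, *Actl6b* to *Actl6a* of the neuronal BAF complex by 0.079 and *Syt2* to *Syt1* by 0.11, and these 3 were not called (exact permutation tests, adjusted p = 0.167, 0.459 and 0.349). In WT these 3 differed by −0.013, −0.14 and 0.32. The WT differences were 1.89 for *Hapln4* to *Hapln1*, 1.04 for *Tubb4a* to *Tubb2b* and 0.13 for *Scn8a* to *Scn2a*. They were 0.14 for *Camk2a* to *Camk2b*, 0.43 for *Nefh* to *Nefm* and −0.14 for *Dlg4* to *Dlg3*.

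Cholesterol synthesis fell along most of the pathway. Of 23 genes, 18 fell (78.3%, against 19.8% of all genes) and 1 rose, with a median of −0.37. *Hmgcs1* (ENSMUSG00000093930, chromosome 13 from 119690379 to 119708260, plus strand), an early enzyme of the pathway, was counted at 10458, 12907, 11656, 12309 and 11736 in juveniles and 6238, 6659, 5809, 6335 and 5952 in adults. Each adult was below each juvenile (log2 difference −0.93 ± 0.053 SE, adjusted p = 4.57e-08). *Mvd* and *Idi1*, which form the isoprene units, fell, with differences of −0.80 and −0.75. The increase was *Srebf2*, the transcription factor that activates the pathway, by 0.12 (adjusted p = 0.00516), and neither of the 2 further fits called it. The summed count was 50066, 59094, 54763, 56594 and 56108 in juveniles and 42349.6, 42001, 40051, 42545 and 39554 in adults, 74.7% of the juvenile mean. Of the 23, 15 fell with adults 4 and 5 alone, and with the covariate 10, *Hmgcs1*, *Mvd* and *Idi1* among them. The sterol regulatory element TCACNCCAC, where N is any base, chosen as a motif after the values had been seen, was in 1 of 17 promoters (5.88%), beside 1.24% of all promoters. That promoter, of *Hmgcs1*, is shown with the match in capitals because the gene had the largest decrease of the list. It lies at chr13:119690101-119690400 on the plus strand of GRCm38.p6 (RefSeq).
Hmgcs1: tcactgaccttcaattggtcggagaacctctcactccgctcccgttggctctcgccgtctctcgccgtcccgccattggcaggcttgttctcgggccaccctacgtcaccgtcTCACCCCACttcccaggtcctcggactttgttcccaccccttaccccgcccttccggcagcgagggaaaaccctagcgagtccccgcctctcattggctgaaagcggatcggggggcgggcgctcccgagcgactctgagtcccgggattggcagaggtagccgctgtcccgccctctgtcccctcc

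**Figure D4:**
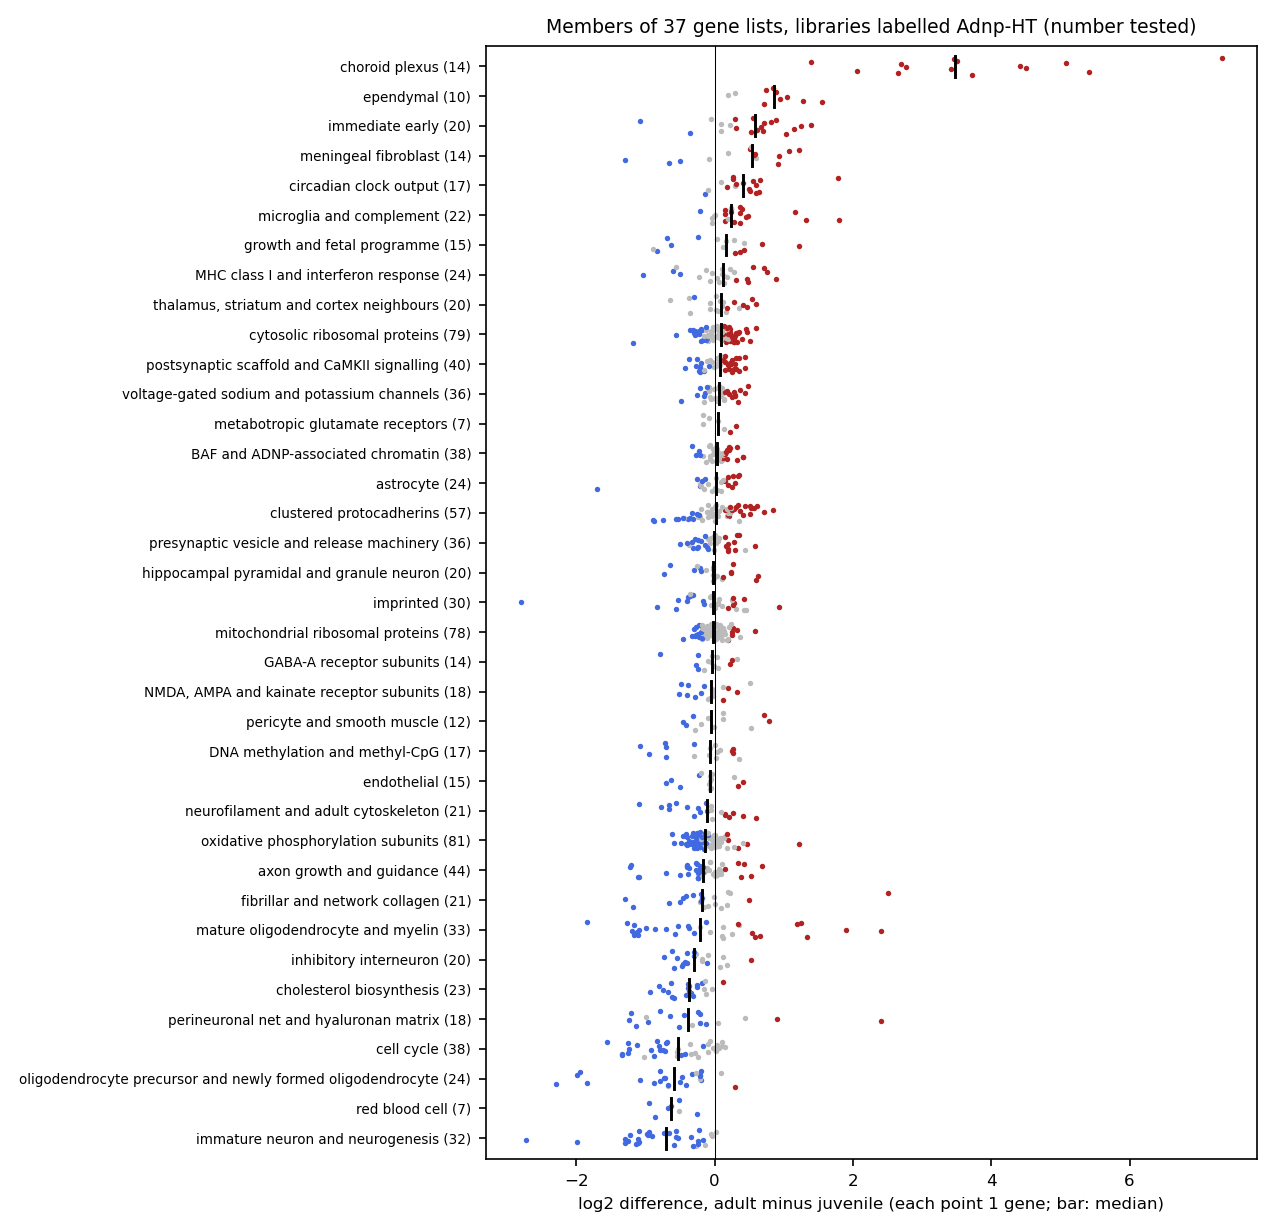
Log2 difference, adult minus juvenile, of each tested member of 37 gene lists in the libraries labelled Adnp-HT (points; red and blue had an adjusted p under 0.05), with the median of each list as a bar and the number tested in brackets. Choroid plexus (median 3.48) and ependymal genes (0.86) stand at the top, and genes of immature neurons (−0.70) and oligodendrocyte precursors (−0.59) near the bottom.

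Microglial and complement genes rose. Of 22, 15 rose (68.2%, against 19.7% of all genes) and 1 fell, with a median of 0.24. *C4b* (ENSMUSG00000073418, chromosome 17 from 34728380 to 34743882, minus strand), a complement component made by glia, was counted at 854, 658, 804, 814 and 701 in juveniles and 1507, 2289.6, 2008, 2010.3 and 1827 in adults. Every adult was above every juvenile (log2 difference 1.32 ± 0.10 SE, adjusted p = 4.96e-07). *Lyz2*, lysozyme of myeloid cells, rose by 1.17, the protease gene *Ctss* by 0.48, and the receptor *Csf1r*, on which microglia depend, was counted at 2649.7, 2506, 2623, 2566 and 2427 in juveniles and 3551, 3504, 3679.6, 3108 and 3581 in adults (log2 difference 0.45 ± 0.047 SE, adjusted p = 7.03e-06). The summed count was 17009, 16767, 17450.0, 16954 and 16681 in juveniles and 19715, 21245, 22830.5, 20922 and 20929 in adults, 124% of the juvenile mean (WT 113%). Increases numbered 8 with adults 4 and 5 alone, and with the covariate 6, *C4b*, *Lyz2*, *Ctss* and *Csf1r* among them. Genes of MHC class I and the interferon response rose in 7 of 24 (29.2%) and fell in 3 (1 without juvenile 3, and 4 and 1 with adults 4 and 5 alone), with a median of 0.12 (0.19 without juvenile 3 and 0.035 with the covariate). *H2-K1*, a heavy chain of MHC class I, was counted at 519, 442, 493, 509 and 477 in juveniles and 807, 1103, 935, 851 and 834 in adults (log2 difference 0.88 ± 0.082 SE, adjusted p = 2.61e-06). *Tap2* and *Tapbp*, which load peptides onto it, rose by 0.71 and 0.55, and *Ifi27* by 0.47. The covariate left *H2-K1* and *Tap2* as the increases, with *Tapbp* and *Ifi27* at adjusted p = 0.167 and 0.939.

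Astrocyte genes went both ways, 8 of 24 up (33.3%) and 5 down (20.8%; 3 without adult 1, adult 5 or juvenile 3), with a median of 0.026 that moved to between 0.010 and 0.054 without adult 1, 3 or 5 or juvenile 1 or 5. Of the 24, 3 rose and 4 fell with adults 4 and 5 alone, and with the covariate 0 and 1. *Fabp7*, a lipid carrier of radial glia and young astrocytes, was counted at 668, 891, 912, 821 and 946 in juveniles and 294, 199, 264, 338 and 219.8 in adults, without overlap (log2 difference −1.70 ± 0.13 SE, adjusted p = 7.00e-07). *Slc1a2*, the main glutamate transporter, fell by 0.25 (adjusted p = 7.16e-04), and *Glul*, glutamine synthetase, rose by 0.19 (adjusted p = 0.00640). *Vim*, an intermediate filament of immature and reactive astrocytes, rose by 0.35, the transcription factors *Sox9* and *Id4* by 0.34 and 0.30 with overlapping groups. *Fabp7* was called in both further fits, *Slc1a2* and *Vim* with adults 4 and 5 alone but not with the covariate (adjusted p from 0.322 to 0.387), and *Glul*, *Sox9* and *Id4* in neither (adjusted p from 0.110 to 0.203 with adults 4 and 5 alone). The summed counts overlapped.

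Immediate early genes, which neurons switch on within minutes of activity, rose. Of 20, 14 rose (70.0%, against 19.7% of all genes) and 2 fell, with a median of 0.58. *Fos* (ENSMUSG00000021250, chromosome 12 from 85473890 to 85477273, plus strand) was counted at 356, 278, 227, 365 and 197 in juveniles and 1048, 619, 534, 503 and 694 in adults. Adult 1 was the highest, and all adults were above all juveniles (log2 difference 1.24 ± 0.20 SE, adjusted p = 2.88e-04). *Arc*, which regulates AMPA receptors at active synapses, was counted at 4039, 4279.6, 3450.3, 4860.0 and 3649 in juveniles and 11059.7, 8018, 7616, 6444 and 8779.6 in adults, again with adult 1 highest (log2 difference 1.03 ± 0.12 SE, adjusted p = 1.90e-05). *Fosb* rose by 1.39, *Egr1* by 0.61 and *Egr2* by 1.15 (adjusted p = 0.0119), juvenile 4 being within the adult range for *Egr2*. *Nptx2*, a secreted pentraxin that gathers AMPA receptors and belongs to the slower genes of the list, went the other way and was counted at 1439, 1618, 1425, 1206 and 1545 in juveniles and 678, 644, 663, 736 and 699 in adults (log2 difference −1.07 ± 0.071 SE, adjusted p = 1.65e-07). The summed count was 28908, 30023, 29128, 31580.1 and 30554 in juveniles and 48977, 41209, 39512, 35397 and 42278 in adults. With adults 4 and 5 alone 12 rose, without *Egr2* (adjusted p = 0.208). With the choroid plexus covariate 3 rose, and the median was 0.32. *Fos*, *Arc*, *Fosb*, *Egr1* and *Egr2* were not among the 3 (adjusted p from 0.0675 to 0.986), while *Nptx2* still fell. The cAMP response element TGACGTCA, chosen after the values had been seen, was in 2 of 15 promoters of the list (13.3%) and in 1.79% of all.

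Genes of the circadian clock and its output rose in 13 of 17 (76.5%) and fell in 1, which most fits without 1 library did not call, with a median of 0.41. The time of day at which tissue was taken is not given, and a difference in it between ages cannot be told apart from age. *Per2*, a repressor of the clock, was counted at 1139.6, 1722, 1467, 1354 and 1469 in juveniles and 2490.3, 2295, 2385, 2075 and 1987 in adults (log2 difference 0.66 ± 0.093 SE, adjusted p = 9.35e-05). *Hlf*, an output transcription factor, was counted at 3775, 3309.5, 3672, 3379 and 2921 in juveniles and 5161, 5768, 4822, 4929.9 and 5196 in adults, with no overlap (log2 difference 0.60 ± 0.066 SE, adjusted p = 1.05e-05). *Bhlhe40* and *Bhlhe41*, repressors that bind E-boxes, rose by 0.60 and 0.64, and *Tef*, the most abundant, by 0.27. Increases of the list numbered 12 with adults 4 and 5 alone, and with the covariate 6, *Hlf* among them, while *Per2*, *Bhlhe40*, *Bhlhe41* and *Tef* had adjusted p = 0.191, 0.0700, 0.0540 and 0.173. The list median was 0.39 with the covariate, and *Bhlhe40* and *Bhlhe41* had differences of 0.43 and 0.59. The E-box CACGTG, chosen after the values had been seen, was in 5 of 14 promoters of the list (35.7%), beside 7.15% of all promoters. All 5 were of called genes, but so were 11 of the 14, so the E-box does not set the called genes apart. The promoter of *Bhlhe41* (chr6:145865371-145865670, minus strand, GRCm38.p6 from RefSeq) is shown with the E-box in capitals.
Bhlhe41: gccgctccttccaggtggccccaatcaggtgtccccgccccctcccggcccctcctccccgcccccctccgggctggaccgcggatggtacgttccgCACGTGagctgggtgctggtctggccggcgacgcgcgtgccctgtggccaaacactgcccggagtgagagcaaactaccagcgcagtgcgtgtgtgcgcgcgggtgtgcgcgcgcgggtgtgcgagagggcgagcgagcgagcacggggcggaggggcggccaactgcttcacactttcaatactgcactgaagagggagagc

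Among chromatin genes, the partners of *Adnp* and the BAF complex rose in 12 of 38 (31.6%) and fell in 4, 42.1% called beside 39.6% of all genes, with a median of 0.039. *Bcl7b* and *Bcl7c*, accessory subunits of BAF, each rose by 0.41, *Smarcd2* by 0.33 and the abundant core subunit gene *Smarcc2* by 0.22. *Smarce1*, a subunit with a high-mobility-group domain, was counted at 1538, 1788, 1816, 1664 and 1800.2 in juveniles and 1404, 1555, 1257, 1365 and 1261 in adults, with overlap (log2 difference −0.33 ± 0.065 SE, adjusted p = 0.00112). *Chd4*, the remodelling enzyme that joins *Adnp*, was counted at 7928 ± 479.8 and 7785 ± 178 (adjusted p = 0.664). With adults 4 and 5 alone 8 of the 38 rose and 5 fell, and with the covariate 4 rose and 1 fell, without *Smarcd2* (adjusted p = 0.140). Of 17 genes of DNA methylation and its readers, 6 fell (35.3%) and 3 rose, with a median of −0.061 that was above 0 over genes with a mean of at least 100. *Tet1*, which oxidizes methylcytosine, was counted at 1138, 1355, 926, 1080.3 and 1174 in juveniles and 614, 478, 598, 519.7 and 465 in adults (log2 difference −1.08 ± 0.10 SE, adjusted p = 2.72e-06). *Dnmt3a*, the enzyme that methylates the genome of maturing neurons, was counted at 5472, 4906, 4845, 4591 and 6202 in juveniles and 3157, 3121, 3261, 3089 and 3268 in adults, all adults below all juveniles (log2 difference −0.70 ± 0.066 SE, adjusted p = 2.96e-06). *Tdg*, the glycosylase that removes oxidized methylcytosine, fell by 0.71 ± 0.042 SE, and *Ezh2*, the histone methyltransferase of progenitors, by 0.95 (adjusted p = 3.80e-04). With the covariate *Tet1*, *Dnmt3a* and *Tdg* were called, and *Ezh2* was not (adjusted p = 0.0901).

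Imprinted genes fell in 11 of 30 (36.7%) and rose in 6, with a median of −0.020 whose sign changed when any of 4 juveniles was left out. Adults 4 and 5 alone gave 8 decreases and 2 increases, and with the covariate 5 and 2. *Mkrn3*, a paternally expressed brake on puberty, was counted at 194, 201, 212, 149 and 373 in juveniles and 18.0, 31.6, 32.9, 46.1 and 28.3 in adults, and juvenile 5 was the highest (log2 difference −2.80 ± 0.25 SE, adjusted p = 2.07e-06). *Nnat*, a proteolipid gene of young neurons, fell by 0.53 and *Ddc*, which makes dopamine and serotonin, by 0.55, both with overlap and not called with the covariate (adjusted p from 0.161 to 0.465). *Nnat* had −0.46 in that fit. *Meg3*, the abundant maternal long RNA, fell by 0.16 (adjusted p = 0.0137, but 0.223 with adults 4 and 5 alone). *Igf2*, a growth factor that choroid plexus and meninges secrete, was counted at 2272, 1649, 2250.4, 1869.7 and 1634 in juveniles and 6159, 4512, 4607, 3028 and 1671 in adults, and adult 5 lay within the juvenile range. It was called (log2 difference 0.93 ± 0.26 SE, adjusted p = 0.0120) but not with adults 4 and 5 alone (adjusted p = 0.424), and it turned to −0.66 with the covariate. *Igfbp2* of the growth list behaved alike, at 522, 452, 648, 561 and 415 in juveniles and 2216, 1666, 1371, 826 and 573 in adults (log2 difference 1.21 ± 0.28 SE, adjusted p = 0.00400), with an adjusted p of 0.0976 with adults 4 and 5 alone and −0.56 with the covariate. Of 15 genes of that list 5 rose and 4 fell, with a median of 0.16 (0.075 without juvenile 4), and the covariate gave 2 of each. *Igf1* was counted at 306, 335, 405, 251 and 360.0 in juveniles and 162, 213, 192, 146 and 214 in adults (log2 difference −0.83 ± 0.14 SE, adjusted p = 3.17e-04), and the covariate fit did not call it (adjusted p = 0.181). *Mycn*, a driver of progenitor growth, fell by 0.68, the growth factor gene *Ptn* by 0.25 (adjusted p = 0.0666 with adults 4 and 5 alone), and *Igfbp5* rose by 0.68.

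Subunits of oxidative phosphorylation fell in 41 of 81 (50.6%) and rose in 5, against 19.8% and 19.7% of all genes, with a median of −0.13. *Uqcr11* of complex III and *Cox7a2* and *Cox7b* of complex IV fell by 0.62, 0.59 and 0.48. *Uqcr11* was counted at 1952, 2080.3, 2112, 2022 and 2318 in juveniles and 1593, 1225, 1372, 1406 and 1248 in adults (log2 difference −0.62 ± 0.069 SE, adjusted p = 1.23e-05). The abundant ATP synthase subunits parted, with *Atp5a1* at −0.15 (adjusted p = 5.56e-04) and *Atp5b* at 0.34 (adjusted p = 7.72e-06). With adults 4 and 5 alone 30 of 81 fell, and with the covariate 13. Cytosolic ribosomal proteins rose in 29 of 79 (36.7%) and fell in 17, with a median of 0.088 that was 0.047 without juvenile 1. Of the 79, 25 rose and 9 fell with adults 4 and 5 alone, and 7 and 4 with the covariate. *Rps28* and *Rpl13a* rose by 0.60 and 0.52, and *Rpl10* was counted at 1880.0, 1387, 1686, 1245 and 1606 in juveniles and 844, 628, 531, 794 and 669.8 in adults, without overlap (log2 difference −1.17 ± 0.13 SE, adjusted p = 9.76e-06). Ribosomal protein genes have many near-identical processed copies, so reads may be divided among them and single values are uncertain. Of 78 mitochondrial ribosomal proteins 6 rose and 12 fell, with a median of −0.023 whose sign changed between fits (5 and 5 with adults 4 and 5 alone, 1 and 3 with the covariate), *Mrpl17* falling by 0.45 and *Mrpl52* rising by 0.58, neither called with the covariate (adjusted p from 0.0794 to 0.107).

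Clustered protocadherins, cell surface proteins that give single neurons their identity, rose in 18 of 57 (31.6%) and fell in 12. Their median of 0.023 turned to −0.00059 under quantile normalization and was below 0 without adult 4. *Pcdha1*, *Pcdha2* and *Pcdha3*, at the start of the alpha cluster on chromosome 18, fell, with differences of −0.88, −0.90 and −0.75. *Pcdha2* was counted at 259.9, 233, 239.9, 252 and 263 in juveniles and 171, 146, 124, 155 and 87.7 in adults (log2 difference −0.90 ± 0.15 SE, adjusted p = 3.34e-04). *Pcdhga2* of the gamma cluster was counted at 618, 489.5, 604, 615 and 644 in juveniles and 1062, 1077, 973, 1017 and 1202 in adults and rose (log2 difference 0.85 ± 0.077 SE, adjusted p = 2.37e-06). The members share constant exons, so that reads of one may be given to another. With adults 4 and 5 alone 8 rose and 6 fell, and with the covariate 3 rose and 3 fell, *Pcdha1*, *Pcdha2*, *Pcdha3* and *Pcdhga2* among them.

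Vessels and ventricle walls were examined as further sources of RNA. Of 15 endothelial genes 4 fell and 2 rose (40.0% called, near the 39.6% of all genes), with a median of −0.066. *Kdr*, the receptor for vascular endothelial growth factor, was counted at 941, 1000.2, 964, 928 and 979.9 in juveniles and 707, 623, 667, 531 and 454 in adults (log2 difference −0.71 ± 0.10 SE, adjusted p = 8.70e-05). *Cldn5*, of the tight junctions of the blood-brain barrier, fell by 0.50 and *Mfsd2a*, its lipid transporter, by 0.63, and the covariate fit called these 3. *Flt1* and *Ly6a* rose by 0.34 and 0.41, neither was called with adults 4 and 5 alone (adjusted p from 0.0613 to 0.201), and *Flt1* turned to −0.12 with the covariate. Of 12 genes of pericytes and smooth muscle 3 fell and 2 rose (41.7% called), with a median of −0.054 whose sign changed between fits. Without adult 2, and without juvenile 2, 1 rose, and none was called with the covariate. *Rgs5* of pericytes fell by 0.31 and the smooth muscle myosin gene *Myh11* rose by 0.79, neither called there (adjusted p from 0.129 to 0.347). Of 14 meningeal genes 7 rose and 3 fell, with a median of 0.55, and with adults 4 and 5 alone 3 rose and 3 fell. *Pcolce*, an enhancer of collagen processing, was counted at 168, 135, 147, 186 and 117 in juveniles and 525, 435, 437, 258 and 194 in adults (log2 difference 1.21 ± 0.23 SE, adjusted p = 0.00101), and turned to −0.18 with the covariate, in which 0 meningeal genes rose and the median was −0.067. *Ogn* rose by 1.08 (adjusted p = 0.215 with adults 4 and 5 alone). The meningeal sums were 7999.6, 6468, 8830.1, 7692 and 5743 in juveniles and 11863, 11111, 11701, 9041 and 6269.6 in adults and overlapped.

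Ependymal genes, of the ciliated cells that line the ventricle, rose in 8 of 10 (80.0%) and fell in none, with a median of 0.86. Increases were 5 with adults 4 and 5 alone, and the covariate gave a median of 0.22. *Foxj1*, the transcription factor of motile cilia, formed 33.2% of their sum and was counted at 194, 228, 265, 304 and 239.9 in juveniles and 633, 534, 594, 411 and 397 in adults. The groups did not overlap (log2 difference 1.05 ± 0.14 SE, adjusted p = 7.41e-05), and adults 1 to 3 stood above adults 4 and 5. The sums were 673, 828, 896, 857 and 762 in juveniles and 1808, 1451, 1821, 1222 and 1137 in adults. *Rsph1* of the cilium rose by 0.88, *Dnah11*, a motor of the cilium, by 1.28, and *Ccdc153* by 0.71. With the covariate 0 of 10 were called (adjusted p from 0.189 to 0.954 for these 4). *Ccdc153* had 0.77 in that fit, where the list median was 0.22. Of 7 red blood cell genes 6 fell (3 without juvenile 3 or juvenile 4) and none rose, with a median of −0.64. There were 3 decreases with adults 4 and 5 alone, without the mean-variance trend and with all 20 libraries, and 1 with the covariate, at a median of −1.11. *Hbb-bs*, adult beta globin, was counted at 3476, 3099.8, 5682, 6593 and 2314 in juveniles and 2562, 2537, 2943, 2374 and 2253 in adults, juveniles 3 and 4 being the highest and juvenile 5 within the adult range (log2 difference −0.64 ± 0.22 SE, adjusted p = 0.0343). *Hbb-bt*, *Hba-a2* and the haem synthesis gene *Alas2* fell by 0.94, 0.67 and 0.87, with overlap, and *Hbb-bs*, *Hba-a2* and *Alas2* were called in 4, 4 and 4 of 10 fits that left out a library. None of the 4 was called with the covariate (adjusted p from 0.101 to 0.269).

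The same age comparison in WT called 6956 of 17563 genes (39.6%), 3461 upward (19.7%) and 3495 downward (19.9%). Of 17365 genes tested in both genotypes, 5176 were called in both, which is 74.6% of the calls in libraries labelled Adnp-HT and 74.9% of those in WT, and 5171 of these had the same direction. Of the genes called in libraries labelled Adnp-HT, 97.7% had the same direction in WT, called or not. Across genes, which are not independent replicates, the 2 sets of differences had a Pearson correlation of 0.851 and a Spearman correlation of 0.803 (17365 genes, no library shared). The choroid plexus sum in adults was 1448% of that in juveniles with the label Adnp-HT and 708% in WT. How far this or any batch difference between ages, shared by both genotypes, enters the agreement was not tested. *Gpr17* had −1.90 in WT against −1.84 in libraries labelled Adnp-HT, *Mbp* −0.91 against −0.86, *Dcx* −1.32 against −1.29, *Hmgcs1* −0.86 against −0.93 and *C4b* 1.19 against 1.32.

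**Figure D5:**
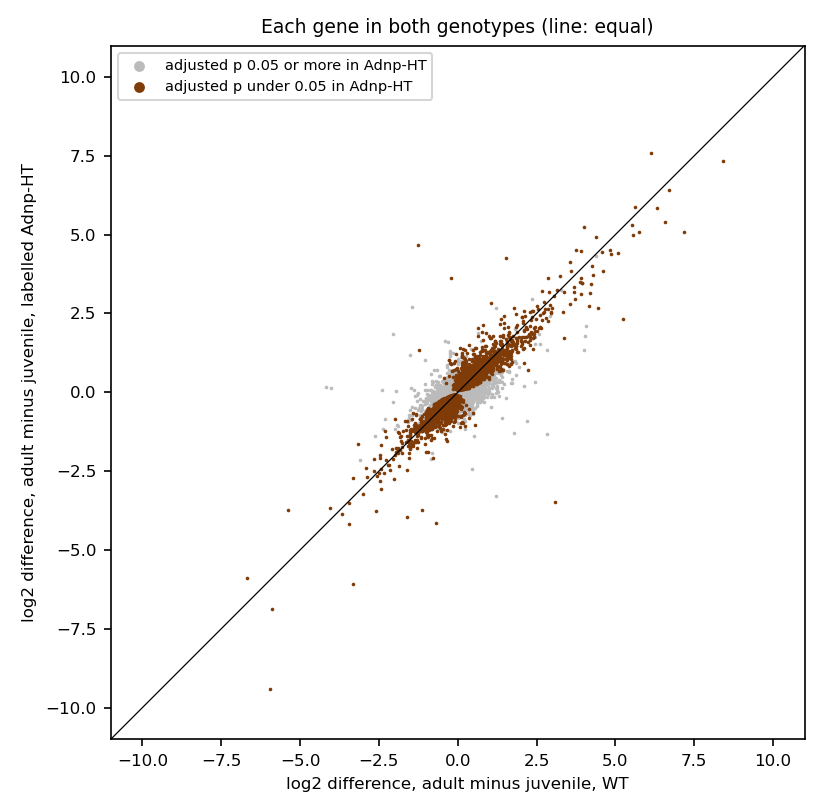
Log2 difference, adult minus juvenile, of each gene in the libraries labelled Adnp-HT (vertical axis) against WT (horizontal axis), with the line of equal differences; brown points had an adjusted p under 0.05 in the libraries labelled Adnp-HT. Of 17365 genes, 5171 were called in both with the same direction, and the Pearson correlation across genes was 0.851.

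Whether the age difference itself differed between genotype labels was tested with limma as an interaction over all 20 libraries, and 0 of 17590 genes (0%) were called, with 1139 (6.48%) at an unadjusted p under 0.05. The lowest adjusted p was 0.292, of *Asb2*, a gene chosen for this after its value was seen. No single gene is therefore shown in this fit to mature otherwise in the libraries labelled Adnp-HT. At the unadjusted level, 14 of 40 postsynaptic genes, 9 of 20 hippocampal neuron markers and 12 of 57 protocadherins were counted, beside 6.48% of all genes. These lists were chosen after their values were seen. Axon growth and guidance genes had 7 of 44 and microglial and complement genes 4 of 22. None of the choroid plexus, myelin, immediate early, interneuron or astrocyte genes was counted. Members of a list are not independent, so no difference between genotypes is read from these counts. For the postsynaptic list, 19 genes rose and 10 fell in libraries labelled Adnp-HT, and 10 rose and 13 fell in WT, with medians of 0.075 and −0.032. No direction is read from medians this near 0, and counts from separate fits do not test a difference between genotypes. The summed count of the hippocampal neuron markers in adults was 102% of that in juveniles with the label Adnp-HT and 90.1% in WT. *Camk2a* rose by 0.35 and by 0.14 in WT, *Shank1* by 0.44 and 0.30, and *Camk2b* by 0.15 against 0.0029 in WT, where it was not called (adjusted p = 0.940). The interaction called none of these genes, and the increase of *Camk2a* in libraries labelled Adnp-HT was not kept under quantile normalization. In other fits of the interaction, *Asb2* was called without the mean-variance trend, and Gm12918 with juveniles labelled P21 and without WT juvenile 1.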

How the data were processed

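Hippocampal RNA of 20 male mice, 5 in each of 4 groups of age and genotype label, had been sequenced by the authors as polyadenylated RNA in an unstranded preparation. Per the labels and the methods, the authors quantified reads with Salmon 1.1.0 and normalized them with DESeq2 1.30.1 in R 3.5.3, and the deposited signal in each column is a normalized count per gene. Depth is not given with the values used, so their precision could not be computed. Genes were located on GRCm38, and promoters came from RefSeq on GRCm38.p6. The values were read without further scaling, log2(value + 1) was taken, and genes whose mean over the compared libraries was 10 or more were fitted with limma 3.58.1 in R 4.3.3, with the mean-variance trend and adjustment over all genes fitted. Adult and juvenile libraries were compared within the label Adnp-HT and, beside it, within WT, and the interaction was fitted over all 20. Gene pairs and the genes at the *Adnp* locus were tested with two-sided exact permutation tests. The code was tested on simulated data, and plots were made in Python 3.11.15 using matplotlib 3.10.9. The comparison and its 37 gene lists were chosen with earlier results of these data known, and the lists are described by counts and medians without a test.

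Named genes are *Adnp*, *Gm20716* and *Dpm1*; the 15 largest increases and 15 largest decreases among called genes with a mean of at least 100 and groups that do not overlap; of each list the 4 called members with the largest difference, at the same mean, and the 2 with the highest mean; and the genes of the 12 pairs. Some of these are left out of the text. All other names were chosen after their values were seen. Alternatives tried were pseudocounts of 0.1 and 5, no filter and a mean of at least 100, quantile and total scaling, limma without the trend, a fit of all 20 libraries, juveniles labelled P21 only, each library left out in turn and a replicate block. Added after the data were seen were adults 4 and 5 alone, the choroid plexus covariate and juveniles whose column names give neither P20 nor P22.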

Additional observations from a re-analysis of the deposited data

Results flagged for a closer look

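In 12 of 226 groups of 5 libraries labelled Adnp-HT whose values were examined, 1 library stood far from the other 4 by Dixon's criterion, where chance alone gives about 1 in 20 groups, or 11.3. The groups are 37 list sums, 12 log2 ratios and 64 genes, at each age. Juvenile replicate 5 was the library far from the others for 4 genes. It had 53.4 for *Hapln2* (others 162 to 186), 61268 for *Kif5a* (others from 71242), 5777 for *Marcksl1* (others up to 4906) and 373 for *Mkrn3* (others up to 212). Its label gives P21 and its column name P20. All 4 genes were called between ages without it as well.

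Juvenile replicate 1 had a cytosolic ribosomal protein sum of 249020, below the other juveniles, and juvenile replicate 2 had 489.5 for *Pcdhga2* and a log2 ratio of 2.14 for *Slc12a5* to *Slc12a2*, both the lowest. Among adults, replicate 1 had 586 for *Hapln2*, the lowest. Replicate 2 had 3122 for *Rims3* and 14635 for the sum of thalamus, striatum and cortex markers, both the highest. Replicate 4 had 4238 for *Hapln4*, the highest, and replicate 5 had 133 for *Gm37376*, where the other adults were listed at 0.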

How the results depend on the processing

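The 6972 genes called in libraries labelled Adnp-HT became 6967 and 6989 with pseudocounts of 0.1 and 5, 7043 without a filter, 6157 at a mean of at least 100, 7047 and 6994 under quantile and total scaling, 6625 without the trend, 7346 with all 20 libraries, 5572 with juveniles labelled P21, and 6249 to 6798 when 1 library was left out (WT 6207 to 6759). The following fits were added after the data were seen: 4075 with adults 4 and 5 alone, 1628 (WT 2265) with the choroid plexus covariate and 5360 with juveniles whose column names give neither P20 nor P22. Adults 4 and 5 alone are fewer libraries, and the covariate shares its direction with age; the cause of the lower counts was not tested otherwise. The interaction called 1 gene without the trend (*Asb2*) and 1 with juveniles labelled P21 (Gm12918, chosen after its value was seen), 0 to 1 when 1 library was left out, and 0 otherwise. A replicate block gave 6465, 6501 in WT and 0 for the interaction, and only adult replicate 5 correlated best with the juvenile of its own number (r = 0.134, the others −0.126 to 0.0172), so libraries of 1 number are not taken as paired. With the covariate the log2 difference turned to −0.13 for *Aqp1*, −0.42 for *Folr1*, −0.40 for *Cldn2*, −0.22 for *Wdr86*, −0.51 for *Col8a1*, 0.031 for *Bcan*, 0.051 for *Gabrg3*, −0.66 for *Igf2*, −0.56 for *Igfbp2*, −0.44 for *Enpp2*, −0.12 for *Flt1*, −0.18 for *Pcolce*, −0.11 for *Lef1*, 0.0038 for *Scn2a* and 0.072 for *Tubb4a*, where *Aqp1*, *Folr1* and *Enpp2* are part of the covariate. Under quantile scaling it turned to −0.0065 for *Camk2a* and the log2 ratio of *Camk2a* to *Camk2b* to −0.14. Of 242 named genes, 133 kept direction and side of the threshold with the covariate and 206 with adults 4 and 5 alone. The depth behind the normalized counts is not known.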

Other observations

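*Rab7b* and *Kdr* had larger decreases with the choroid plexus covariate than without it. *Rab7b*, a small GTPase gene, had −2.41 without and −3.36 with the covariate, and *Kdr*, the endothelial growth factor receptor gene, −0.71 and −1.25. With adults 4 and 5 alone they had −2.77 and −0.97.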
